A study of Arabidopsis thaliana with 12 samples.

Results

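The genes described here differed between the 2 parental accessions of Arabidopsis thaliana and stood close to the lower parent in both reciprocal F1 hybrids. There were 28 of them among 32992 gene identifiers that occurred once in the deposited tables. They were chosen from group means of RPKM (reads per kilobase of transcript, scaled to 1000000 reads). The higher parent had to reach at least 5 RPKM, the lower parent at least 0.5 RPKM, and their ratio at least 2, with no overlap between the 3 Col and the 3 C24 values. These parental criteria left 657 genes. For each hybrid a position was then computed as the hybrid mean minus the lower parent's mean, divided by the difference between the parents, so that 0 is the lower parent, 1 the higher parent and 0.5 the mid-parent value. Positions from -0.25 to 0.25 were required in both hybrids, which 31 genes met, and 3 of these (SOC1, which is AT2G45660, and AT1G67865 and AT5G45430) were left out by name. Col was the higher parent for 20 of the 28 genes and C24 for the other 8. Since parent and hybrid values chose these genes, their levels and positions are given as a description, with no test of those differences as support.

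In an F1 hybrid every nuclear gene is present as 1 copy from each parent. If each copy were transcribed as in its own parent, the hybrid would lie at the mid-parent value, which is called additive expression. A hybrid near the lower parent is described as low-parent expression-level dominance. Such departures can arise where regulators from one parent act on both copies, and dominance of this kind is studied in plants in connection with heterosis, the greater vigour of hybrids.

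The plants were wild-type Col, wild-type C24 and their F1 hybrids, named Col/C24 and C24/Col; which parent was the mother of each is not given in the sources used here. Shoots were taken from seedlings at 14 days of age, grown under short days with 8 h of light at 22 °C and 16 h of darkness at 18 °C. No transgene or treatment was named for any group. Each of the 4 groups had 3 libraries of poly(A)-selected RNA, and nothing states how many plants went into a library or whether replicates were grown separately, so p-values measure the spread between these libraries. In bulk shoots, fewer cells of a type and less RNA per cell cannot be told apart.

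The depth estimated from the steps between low RPKM values was 15.45 to 26.85 M reads per library, at which 3 reads on a gene of 1500 bases correspond to 0.0745 to 0.129 RPKM. The rRNA genes took 0.231% to 4.48% of the summed signal and plastid genes 0.272% to 4.31%. The shoot markers RBCS1A (10260.2 to 14207 RPKM), CA1 and RCA were high in all 12 libraries, while CAB1 was listed at 0 in every one. Of 3 root markers, PYK10 was at 70.1 to 113 RPKM, PHT1;1 at 0.03 to 0.66 RPKM and IRT1 was listed at 0 throughout. Of 4 floral markers, SEP3 was at 1.20 to 3.54 RPKM and AP3, PI and AG did not exceed 0.52 RPKM. The 4 seed markers ranged from 0 to 50.4 RPKM for CRA1, 77.8 for CRU3, 2.62 for SESA1 and 9.22 for OLEO1. The part of these shares and markers in the results was not tested. Libraries with the same replicate number deviated together from their group means (Pearson r 0.54 to 0.83 over the 17927 genes tested, 18 pairs), against -0.65 to 0.19 for the 36 pairs with different numbers. Over the 28 genes alone the ranges were wider and overlapped, from -0.25 to 0.74 for the same number and from -0.68 to 0.40 for different numbers.

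The 28 genes lay on all 5 nuclear chromosomes, with 5, 4, 6, 9 and 4 on chromosomes 1 to 5. The reference annotation listed 25 as protein coding, 1 as a non-coding RNA and 1 as a transcribed pseudogene, and had no entry for AT4G25692. Chromosome 4 held both adjacent pairs, AT4G22513 with AT4G22517 and AT4G15680 with AT4G15690. AT4G22513 and AT4G22517 are annotated as proteins of the protease inhibitor, seed storage and lipid transfer family, small secreted proteins with a hydrophobic cavity, and AT4G15680 and AT4G15690 as glutaredoxin-like members of the thioredoxin superfamily, which exchange electrons with glutathione. Both pairs lie on the plus strand, with 0 genes starting between their members. The 250 bases before the annotated start of each of these 4 genes are printed from RefSeq, assembly TAIR10.1, 5′ to 3′ on the plus strand, to show how alike the upstream regions of these neighbours are. Capitals mark TATAAA, the TATA box core, on either strand, so that TTTATA is a match on the opposite strand. The windows are chr4:11854559-11854808 for AT4G22513, chr4:11856493-11856742 for AT4G22517, chr4:8931367-8931616 for AT4G15680 and chr4:8934046-8934295 for AT4G15690.
AT4G22513: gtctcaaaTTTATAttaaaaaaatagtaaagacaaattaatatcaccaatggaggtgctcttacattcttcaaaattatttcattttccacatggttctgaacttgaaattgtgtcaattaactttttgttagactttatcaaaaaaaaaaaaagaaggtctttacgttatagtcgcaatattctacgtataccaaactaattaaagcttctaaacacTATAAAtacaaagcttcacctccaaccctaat
AT4G22517: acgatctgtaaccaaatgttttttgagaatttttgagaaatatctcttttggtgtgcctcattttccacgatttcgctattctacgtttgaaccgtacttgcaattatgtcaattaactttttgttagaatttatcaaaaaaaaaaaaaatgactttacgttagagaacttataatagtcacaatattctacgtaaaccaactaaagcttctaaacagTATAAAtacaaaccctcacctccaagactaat
AT4G15680: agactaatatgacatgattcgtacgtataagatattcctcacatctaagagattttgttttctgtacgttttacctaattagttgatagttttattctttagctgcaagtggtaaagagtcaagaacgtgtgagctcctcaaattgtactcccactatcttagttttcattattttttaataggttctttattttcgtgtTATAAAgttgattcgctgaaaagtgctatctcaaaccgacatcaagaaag
AT4G15690: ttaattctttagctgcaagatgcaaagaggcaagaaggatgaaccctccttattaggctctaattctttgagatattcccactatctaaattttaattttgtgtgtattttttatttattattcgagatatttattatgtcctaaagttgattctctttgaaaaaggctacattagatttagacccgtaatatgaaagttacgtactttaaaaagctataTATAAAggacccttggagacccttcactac
The first pair shared 192 of 276 aligned upstream positions (69.57%) and 556 of 649 aligned transcript positions (85.67%). In the second pair 151 of 305 upstream positions (49.51%) and 529 of 742 transcript positions (71.29%) were identical. No unrelated windows were aligned in the same way, so the upstream shares have no background to be read against. An annotated antisense gene on the minus strand, AT4G22510, overlaps the upstream windows of AT4G22513 and AT4G22517 and the interval between the genes. Its group means were 0 to 0.08 RPKM, and since the counting is not stated to use strand, its reads and those of the pair cannot be told apart. TATAAA occurred in these windows for 11 of the 27 genes with a reference entry (40.7%), against 44.6% of 37897 windows of all annotated genes. TTGAC, the core of the W-box that WRKY factors bind, was in 15 of 27 (55.6%), against 48.1% of the 636 windows of genes meeting the parental criteria and 43.9% of all. CACGTG, the G-box, was in 2 of 27 (7.41%), against 8.18% of the 636 windows and 5.39% of all. AAAATATCT, the evening element of clock-controlled genes, was also in 2 (7.41%, against 3.62% and 2.11%). GAANNTTC, a heat shock element core, was in 3 (11.1%, against 8.02% and 9.44%). A CArG box, to which MADS-box factors bind, was found in 1 window (3.7%, against 2.2% and 2.25%), that of AT4G15690. Both strands were searched, and a match is a description of letters in the window. All windows come from the same reference assembly, so differences between the Col and C24 copies of a window were not looked at.

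Across the 28 genes the median position in C24/Col was 0.18 and that in Col/C24 was 0.14, against a median mean position of 0.44 over the 657 genes meeting the parental criteria, whose middle 50% of genes ran from 0.35 to 0.55. Of those 657 genes, 455 (69.3%) lay between 0.25 and 0.75 in both hybrids, and 15 lay near the higher parent by the mirrored window. The 28 genes made up 4.26% of the 657, with 6.94% of the 288 genes higher in Col and 2.17% of the 369 genes higher in C24. Their parent ratio had a median of 2.35 and ran from 2.0008 for CDC20.1 to 19.7 for AT1G47400, and their median level in the higher parent was 12.6 RPKM, against 2.75 and 16.4 RPKM for the 657 genes.

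**Figure D1:**
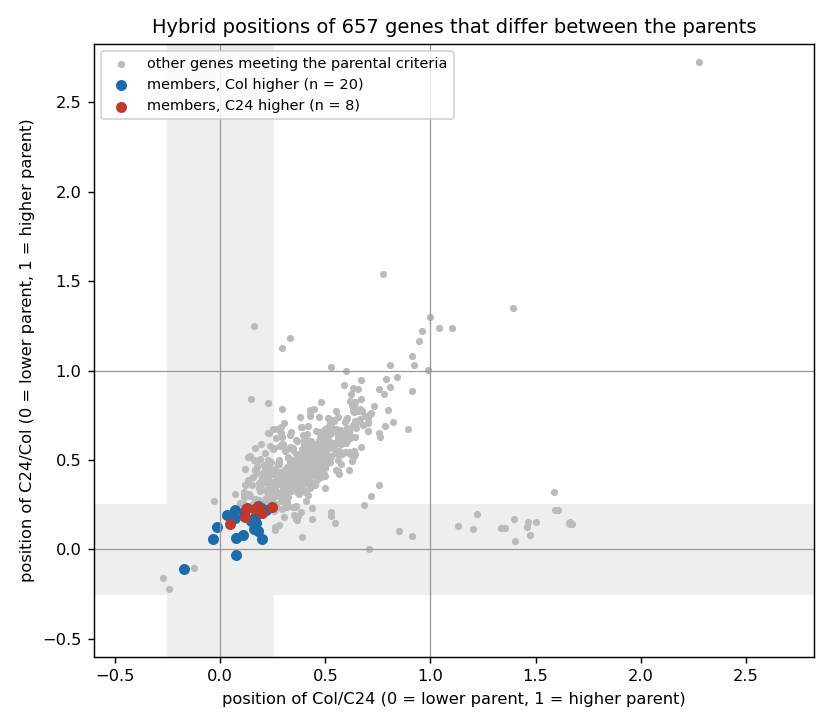
Position of each of the 657 genes meeting the parental criteria in Col/C24 (x axis) and C24/Col (y axis), both without unit, with 0 the lower and 1 the higher parent. Blue points are the 20 genes higher in Col and red points the 8 higher in C24; shading marks positions from -0.25 to 0.25, and most grey points lie around the median of 0.44.

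Positions ran on across the edge of the window without a gap. Just inside it among genes higher in Col were AT4G22517, AGL24 and HMT-1, whose larger position was 0.24, 0.23 and 0.22, and just outside were AT3G16660, AT5G57790 and AT1G29270, each at 0.26. Among genes higher in C24, TIN1, AP2C1 and NAC047 were just inside at 0.25, 0.24 and 0.23, and UMAMIT29 at 0.2529, AT1G65500 at 0.26 and AT5G48490 at 0.26 just outside. The count rose to 91 with a window of 0.35 and fell to 6 with one of 0.15.

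The hybrid libraries varied around the lower parent. All 6 hybrid libraries were below the lowest library of the higher parent for 22 genes, 19 of them higher in Col and 3 higher in C24, against 388 of the 657 genes meeting the parental criteria (59.1%). The window on these same values largely fixes this count and those that follow, and nothing is read from them. For 4 genes, GRP3S, NIT2, IRT3 and AT3G59765, all 6 hybrid libraries lay inside the range of the lower parent (0.609% of the 657). For 6 genes, AT4G22517, AT4G22513, AT5G14840, AGL24, GDPD6 and NAC047, all 6 lay above the highest library of the lower parent, against 455 of the 657 (69.3%). When each hybrid library was placed between the parental libraries of its own replicate number, 167 of 168 positions were below 0.5 (62% over the 657 genes) and 116 of 168 were from -0.25 to 0.25 (16.6% over the 657 genes). The single position above 0.5 belonged to PDF1.3.

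**Figure D2:**
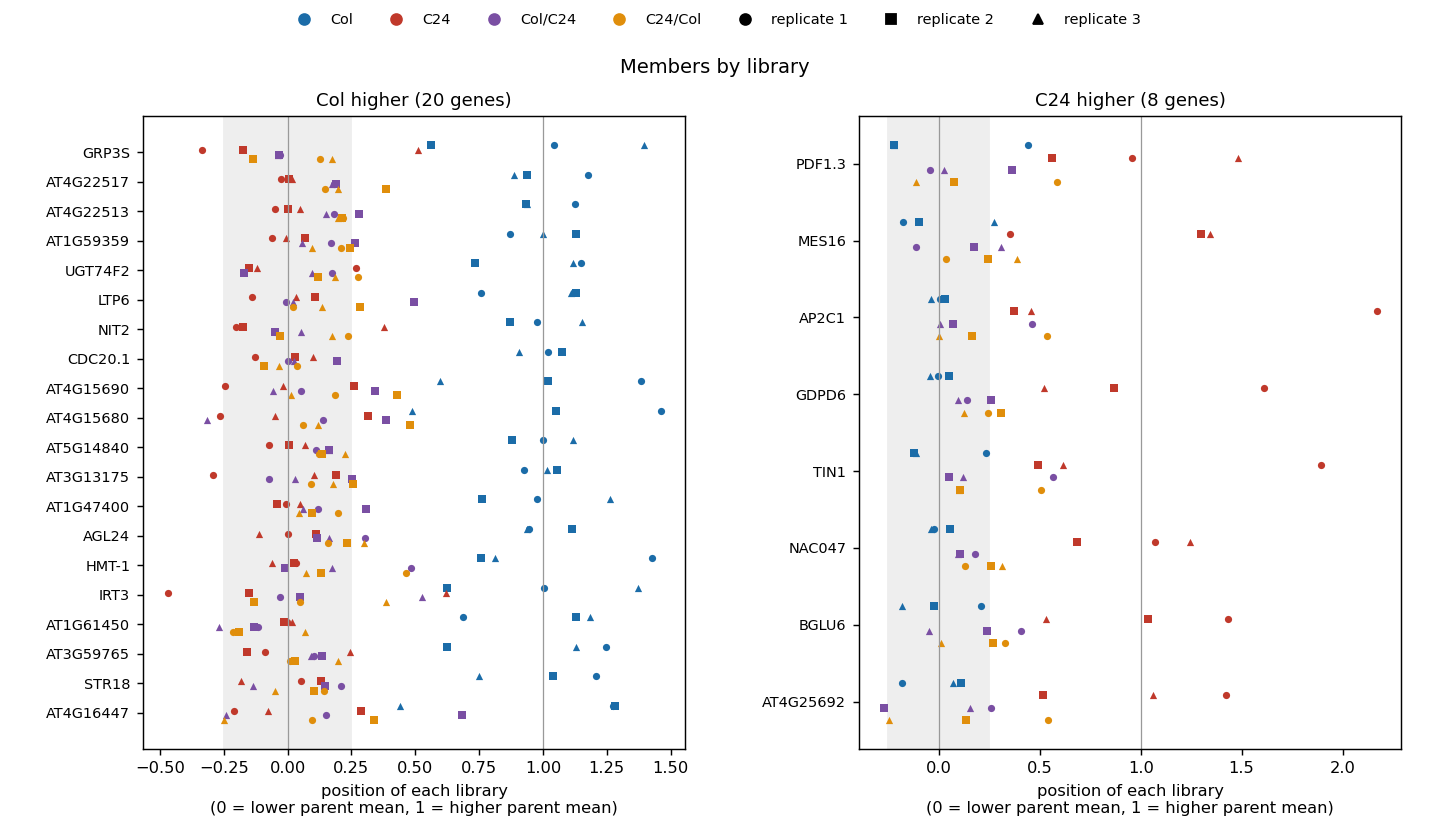
Each of the 12 libraries of the 28 genes (rows) placed on a linear scale without unit (x axis), where 0 is the lower and 1 the higher parent's group mean; colour gives the group, symbol shape the replicate number and shading -0.25 to 0.25. For 22 genes the hybrid points all lie left of the leftmost point of the higher parent.

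The 3 genes with the highest RPKM in their higher parent were GRP3S, AT4G22517 and AT4G22513, described here with LTP6 as genes for secreted and lipid transfer proteins. GRP3S (AT2G05380), a short form of glycine-rich protein 3 of the cell wall, was at 1191, 893 and 1406 RPKM in the 3 Col libraries, 341, 441 and 861 in C24, 529.9, 527 and 524 in Col/C24 and 626, 465 and 655 in C24/Col. The C24 libraries spread widely, with replicate 3 close to the lowest Col library, and all hybrid libraries fell inside the C24 range. The means were 1164 ± 258 in Col, 548 ± 276 in C24, 527 ± 3.06 in Col/C24 and 582 ± 102 in C24/Col (SD, n = 3), with positions of -0.03 and 0.06.

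The adjacent lipid transfer genes were much tighter. AT4G22517 was at 251, 215 and 207 RPKM in Col, 69.3, 74.1 and 75.8 in C24, 101, 102 and 99.5 in Col/C24 and 95.3, 131 and 103 in C24/Col. AT4G22513 was at 141, 124 and 125 RPKM in Col, 37.2, 41.8 and 46.1 in C24, 57.7, 66.5 and 55.03 in Col/C24 and 60.9, 60.5 and 59.3 in C24/Col. For both, no group overlapped another except the hybrids with each other, and the hybrids were nearer to C24, at positions of 0.18 and 0.24 for AT4G22517 and 0.20 and 0.21 for AT4G22513. LTP6 (AT3G08770), a lipid transfer protein of the pathogenesis-related family PR-14, was at 48.8, 59.8 and 59.2 RPKM in Col, 22.6, 29.7 and 27.6 in C24, 26.5, 41.2 and 27.2 in Col/C24 and 27.2, 34.97 and 30.6 in C24/Col. Its hybrid libraries overlapped C24 and were all below Col.

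Other genes of the chromosome 4 lipid transfer cluster, looked at after the values of the pair were seen, were also higher in Col but stood elsewhere between the parents. AT4G22485 had means of 233 ± 12.5 RPKM in Col and 82.6 ± 9.09 in C24 (SD, n = 3) with positions of 0.54 and 0.59, and AT4G22505 was also near the mid-parent value at 0.52 and 0.65. AT4G22490 had positions of 0.28 and 0.39, and AT4G22520 of 0.11 and 0.29. Within 1 cluster, neighbours that were all higher in Col ran from near the lower parent to the mid-parent value.

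Redox genes were the next group. AT4G15690 was at 23.7, 20.01 and 15.7 RPKM in Col, 7.27, 12.4 and 9.54 in C24, 10.3, 13.2 and 9.15 in Col/C24 and 11.6, 14.1 and 9.86 in C24/Col, and its neighbour AT4G15680 at 20.7, 17.2 and 12.3, 5.84, 10.8 and 7.71, 9.31, 11.4 and 5.40 and 8.65, 12.3 and 9.16. Both pairs of parents were separated by little, and the hybrids overlapped C24. In replicate 2, C24 and both hybrids had their highest value of each gene, while Col had its highest in replicate 1. Of the other genes in this glutaredoxin cluster, chosen after the values were seen, AT4G15670 (means 5.53 ± 1.40 in Col and 3.11 ± 1.28 in C24, SD, n = 3) and AT4G15660 had overlapping parents, with both hybrid means at or below C24 in each. AT4G15700 had positions of 0.15 and 0.45. STR18 (AT5G66170), a sulfurtransferase of the rhodanese type, was at 6.31, 5.74 and 4.76 RPKM in Col, 2.41, 2.68 and 1.62 in C24, 2.94, 2.73 and 1.78 in Col/C24 and 2.72, 2.59 and 2.07 in C24/Col. All its hybrid libraries were below all Col libraries, with positions of 0.07 and 0.07.

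**Figure D3:**
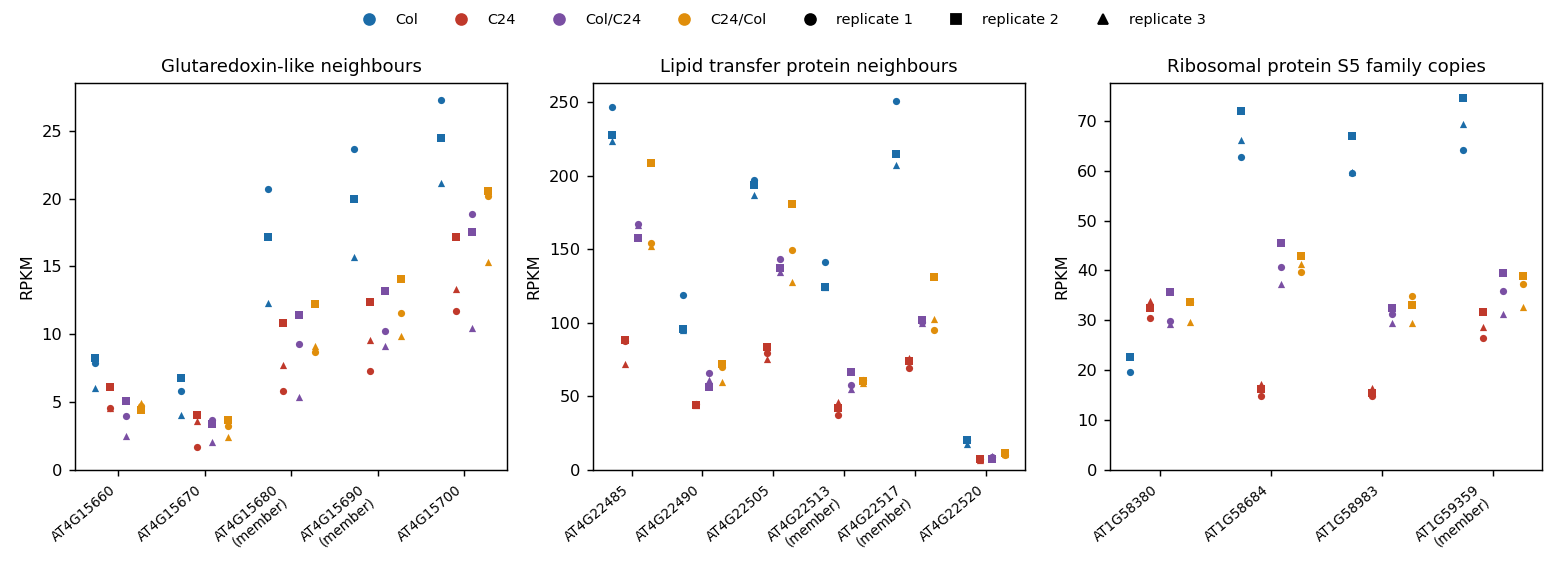
RPKM (y axis) in each of the 12 libraries for members and their relatives in the glutaredoxin-like cluster, the lipid transfer cluster and the ribosomal protein S5 copies, with 1 point per library, coloured by group and shaped by replicate number. In the lipid transfer cluster the hybrids of AT4G22513 stand near C24, at positions of 0.20 and 0.21, and those of AT4G22485 near the mid-parent value, at 0.54 and 0.59.

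Several of the 28 genes act on hormones or in defence. UGT74F2 (AT2G43820), a glucosyltransferase that conjugates salicylic acid, was at 71.5, 57.2 and 70.4 RPKM in Col, 41.3, 27 and 28.1 in C24, 38.2, 26.4 and 35.4 in Col/C24 and 41.6, 36.2 and 38.4 in C24/Col. Its hybrids were all below Col and overlapped C24, with positions of 0.03 and 0.19. NIT2 (AT3G44300), a nitrilase that converts indole-3-acetonitrile to the auxin indole-3-acetic acid, was at 32.04, 29.3 and 36.5 RPKM in Col, 1.96, 2.68 and 16.7 in C24, 5.83, 5.90 and 8.41 in Col/C24 and 13.2, 6.31 and 11.5 in C24/Col. In C24 replicate 3 the value was far above those of the other 2 C24 libraries, and all hybrid libraries lay between the lowest and the highest C24 value. Without replicate 3, NIT2 no longer met the rule, while without replicate 1 or 2 it did.

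Among the genes higher in C24, MES16 (AT4G16690), a methyl esterase that cleaves methyl jasmonate and methyl indole-3-acetate in vitro, was at 7.84, 8.76 and 13.2 RPKM in Col, 14.1, 25.3 and 25.8 in C24, 8.57, 11.99 and 13.6 in Col/C24 and 10.4, 12.8 and 14.5 in C24/Col. Replicate 1 was lowest in every group, and the parents were separated by less than 1 RPKM between Col replicate 3 and C24 replicate 1. PDF1.3 (AT2G26010), a plant defensin, was at 16.7, 0.37 and 0.36 RPKM in Col, 29.4, 19.7 and 42.3 in C24, 4.75, 14.8 and 6.45 in Col/C24 and 20.2, 7.61 and 3.07 in C24/Col. Col replicate 1 set the Col mean, and the 6 hybrid libraries ran from 3.07 to 20.2 RPKM, inside the Col range at the low end and inside the C24 range at the high end. The related defensin PDF1.2b, added after these values were seen, was at 17.8, 0 and 0 RPKM in Col, so it too was high in Col replicate 1 and listed at 0 in the other Col libraries. AP2C1 (AT2G30020), a protein phosphatase 2C that acts on the MAP kinases MPK4 and MPK6, was at 5.36, 5.52 and 5.06 RPKM in Col, 20.5, 7.93 and 8.53 in C24, 8.55, 5.82 and 5.36 in Col/C24 and 9.07, 6.48 and 5.34 in C24/Col. C24 replicate 1 was more than the other C24 libraries together, and AP2C1 met the rule again without replicate 2 but not without replicate 1 or 3.

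Genes of the cell cycle and of flowering were represented by 1 member each, with the floral regulator SOC1, at positions of -0.24 and -0.22, left out by name. CDC20.1 (AT4G33270), an activator of the anaphase-promoting complex that targets mitotic proteins for degradation, was at 24.9, 25.6 and 23.5 RPKM in Col, 10.8, 12.7 and 13.6 in C24, 12.3, 14.7 and 12.7 in Col/C24 and 12.8, 11.2 and 11.9 in C24/Col. Every hybrid library was below every Col library, with positions of 0.07 and -0.03. AGL24 (AT4G24540), a MADS-box factor that promotes flowering with SOC1, was at 8.54, 9.41 and 8.51 RPKM in Col, 3.72, 4.27 and 3.14 in C24, 5.25, 4.30 and 4.54 in Col/C24 and 4.52, 4.90 and 5.24 in C24/Col. Its hybrids were above all C24 libraries and below all Col libraries, at positions of 0.19 and 0.23. AGL24 was also the only member among 130 genes in 9 lists, of which 30 met the parental criteria (10 of 24 in the glucosinolate list, 5 of 20 in flowering, 5 of 13 in jasmonate, 3 of 13 in cold and drought, 2 in each of salicylic acid, touch and flavonoid, 1 among NLR immune receptors and 0 of 9 heat shock genes).

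Metabolism, transport and stress made up the rest of the named genes. IRT3 (AT1G60960), a zinc and iron transporter, ranged over 5.89 to 8.92 RPKM in Col, 1.47 to 5.88 in C24, 3.25 to 5.50 in Col/C24 and 2.83 to 4.93 in C24/Col, with its hybrids inside the C24 range. HMT-1 (AT3G25900), a homocysteine S-methyltransferase of methionine metabolism, had means of 7.95 ± 1.61, 3.62 ± 0.226, 4.56 ± 1.08 and 4.58 ± 0.916 RPKM in Col, C24, Col/C24 and C24/Col (SD, n = 3). BGLU6 (AT1G60270), named beta glucosidase 6 in the reference, was higher in C24 (6.05 ± 1.54 RPKM) than in Col (2.64 ± 0.674 RPKM, SD, n = 3). It stood at 0.20 in Col/C24 and 0.20 in C24/Col. GDPD6 (AT5G08030), a glycerophosphodiester phosphodiesterase of phospholipid turnover, had the largest parent ratio among the genes higher in C24, 13.9. It was at 0.59, 1.03 and 0.28 RPKM in Col, 13.8, 7.71 and 4.89 in C24, 1.77, 2.76 and 1.41 in Col/C24 and 2.64, 3.13 and 1.67 in C24/Col. All its hybrid libraries were above Col and below C24.

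TIN1 (AT5G64510), a gene induced by stress of the endoplasmic reticulum, was at 2.60, 0.57 and 0.63 RPKM in Col, 11.98, 4.06 and 4.75 in C24, 4.47, 1.56 and 1.94 in Col/C24 and 4.14, 1.85 and 1.84 in C24/Col. Replicate 1 was the highest library of every group. NAC047 (AT3G04070), a NAC transcription factor also called SPEEDY HYPONASTIC GROWTH for its part in upward leaf movement, was at 1.45, 1.82 and 1.38 RPKM in Col, 6.59, 4.76 and 7.41 in C24, 2.39, 2.05 and 2 in Col/C24 and 2.16, 2.76 and 3.03 in C24/Col. The 4 groups separated into Col, then the hybrids together, then C24, with no overlap between hybrids and either parent.

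The remaining genes had no function or only a family name in the reference. AT1G47400 had the largest parent ratio of all, with 9.89, 7.81 and 12.7 RPKM in Col, 0.46, 0.1 and 0.98 in C24, 1.67, 3.47 and 1.09 in Col/C24 and 2.42, 1.43 and 0.94 in C24/Col. The lowest C24 value, 0.1 RPKM, is near what 3 reads give on a gene of 1500 bases. AT1G47400 has 779 exon bases, on which that value takes fewer reads, so the ratio of 19.7 rests on few reads. The hybrids overlapped C24 in part. Its relative AT1G47395, 81.0% identical over 369 bases and looked at after the values were seen, was at 18.4 ± 8.27 RPKM in Col and 1.97 ± 0.74 in C24 (SD, n = 3), with positions of 0.26 and 0.13. AT1G61450, annotated as a CAP-gly domain linker, was the only gene of the 28 with both hybrid means below the lower parent. It was at 5.84, 7.37 and 7.57 RPKM in Col, 3.45, 3.41 and 3.51 in C24, 3.06, 3 and 2.52 in Col/C24 and 2.72, 2.80 and 3.69 in C24/Col, so 5 of 6 hybrid libraries were below every C24 library.

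AT5G14840, the transcribed pseudogene, was at 15.03, 13.7 and 16.3 RPKM in Col, 3.34, 4.21 and 4.90 in C24, 5.34, 5.92 and 5.91 in Col/C24 and 5.48, 5.61 and 6.60 in C24/Col, and its hybrids lay just above C24 with no overlap. The non-coding RNA AT3G59765 ranged over 4.64 to 7.03 RPKM in Col, 1.63 to 3.18 in C24, 2.59 to 2.75 in Col/C24 and 2.28 to 2.99 in C24/Col. The means of AT3G13175 were 12.9 ± 0.462, 5.97 ± 1.78, 6.45 ± 1.14 and 7.18 ± 0.58 RPKM, and those of AT4G16447 5.02 ± 1.29, 2.35 ± 0.694, 2.88 ± 1.24 and 2.51 ± 0.789 RPKM, in the same order of groups (SD, n = 3). AT4G25692 was higher in C24, at 5.49 ± 1.59 RPKM against 2.02 ± 0.547 in Col (SD, n = 3), and had positions of 0.05 and 0.14.

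AT1G59359, annotated as a ribosomal protein S5 family protein of the small ribosomal subunit, was tight within groups at 64.1, 74.7 and 69.4 RPKM in Col, 26.5, 31.6 and 28.6 in C24, 35.8, 39.5 and 31.2 in Col/C24 and 37.3, 38.8 and 32.7 in C24/Col. Its value is uncertain, because its reference transcript is identical to that of AT1G58684 over 1288 bases and to that of AT1G58983 over 1223 bases, and how reads were divided among identical copies is not given in the sources used here. AT1G58684 had means of 66.99 ± 4.70 RPKM in Col and 16.1 ± 1.14 in C24 (SD, n = 3) with hybrids at the mid-parent value (0.49 and 0.50), and AT1G58983 had positions of 0.33 and 0.36. A relative at 97.4% identity over 890 bases, XW6, was higher in C24, at 32.2 ± 1.76 RPKM against 21.8 ± 1.78 in Col (SD, n = 3). AT5G14840 and AP2C1 also had another gene at 95% identity or more over at least 100 bases, for AP2C1 over 102 bases. In all, 6 of the 27 genes with a reference transcript had another gene at 90% or more.

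The position was also read in libraries that did not take part in the choice. Genes were chosen again from 2 replicates and their hybrids were placed between the parents of the replicate left out. With replicate 1 left out, 24 genes were chosen, with a median position of 0.14, and in replicate 1 their median was 0.20. Both hybrids were below 0.5 there in 22 of the 24 (91.7%), against 50.0% of the 650 genes meeting the parental criteria in the same 2 replicates, and both were from -0.25 to 0.25 in 8 (33.3%, against 8.46%). With replicate 2 left out, 56 genes moved from a median of 0.15 to 0.30, with both hybrids below 0.5 in 35 (62.5%, against 35.2% of 747) and in the window in 8 (14.3%, against 4.69%). With replicate 3 left out, 29 genes went from 0.18 to 0.19, with both hybrids below 0.5 in 20 (69.0%, against 47.4% of 741) and in the window in 9 (31.0%, against 7.69%). The parental order turned in replicate 3 for 3 of these 29, so the median of 0.19 is over the other 26, while that of 0.18 is over all 29. In each left-out replicate, both hybrids are placed between the same pair of parental libraries, so their positions are not independent. Each group has 1 library there, which all the genes share, so the percentages describe that replicate and are not counts of independent cases.

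**Figure D4:**
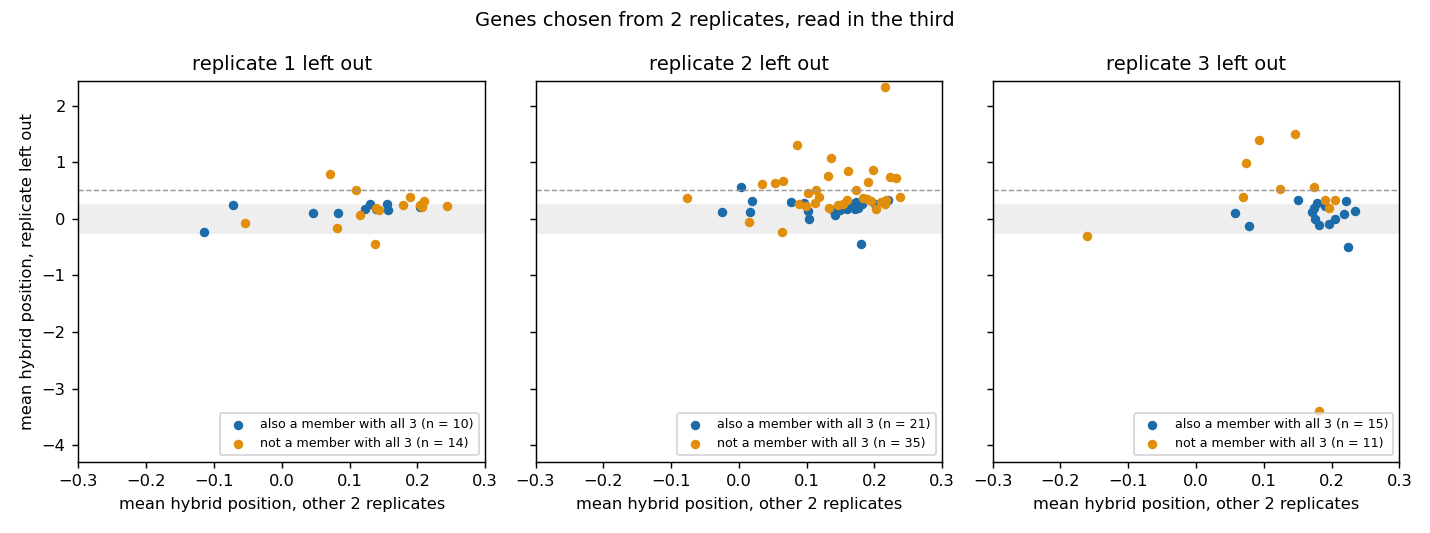
Mean position of both hybrids in the 2 replicates that chose the genes (x axis) and in the replicate left out (y axis), both without unit, with 1 point per gene. Shading marks -0.25 to 0.25 and the dashed line 0.5; 22 of 24, 35 of 56 and 20 of 29 genes had both hybrids below 0.5 in the replicate left out, and the 3 genes whose parental order turned in replicate 3 are not drawn.

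Membership changed with the replicates used. Of the 28 genes, 10 were chosen again without replicate 1, 21 without replicate 2 and 15 without replicate 3. The genes chosen in all 3 cases were AT4G22513, AT1G59359, AT5G14840, AT3G59765 and STR18, a further 10 were chosen in 2 cases and 11 in 1 case. HMT-1 and AT4G16447 were chosen in no case.

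The model fits give the same values with their errors. Between the parents, 28 of the 28 genes had a Benjamini-Hochberg adjusted p below 0.05 in limma on log2(RPKM + 1), against 22.7% of the 17927 genes tested, which the choice of the genes fixed. Against the mid-parent value on this log2 scale, 0 of 28 were called in Col/C24 (0.0335% of all genes, 0.0279% lower) and 0 in C24/Col (0.0502%, with 0.0279% lower), with the genes' median at -0.50 and -0.43. At an unadjusted p below 0.05, 17 and 15 were lower by limma, against 1587 and 1089 of all genes tested in either direction. With the replicate number as a block, added after the data were seen, 15 were called in Col/C24 (2.9% of all genes, 2.6% lower) and 9 in C24/Col (1.57%, with 0.842% lower), all of them lower. The rule used this contrast, and nothing is read from these counts.

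The reciprocal hybrids were compared with each other in the same limma model. The rule bounds this difference, since both hybrids had to lie near the same parent. C24/Col differed from Col/C24 at an adjusted p below 0.05 in 0 of 28 genes, against 0% of the 17927 tested, and in 0 of the 28 at an unadjusted p below 0.05, against 745 genes overall. With the replicate block there were 0 as well (0% of all genes tested), and 1 at an unadjusted p below 0.05, against 2377 genes overall. The median log2 difference was 0.05 for the 28 genes and 0.08 for all genes tested. The position was higher in C24/Col for 20 of the 28 genes with values as deposited, but for 13 after scaling by median-of-ratios size factors, which moved the median of all genes to 0.00303.

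Replicate 1 against the mean of replicates 2 and 3, across all 4 groups, is a contrast that the rule did not use. The replicate numbers have no stated meaning beyond their number. By limma with group and replicate number in the model, 9 of the 28 genes were called, 6 higher and 3 lower in replicate 1, against 34.1% of all genes tested (16.6% higher and 17.5% lower), so the share was near the background. The median was -0.02 for the 28 genes and -0.04 for all genes. Of the genes higher in Col 5 of 20 were called, and of those higher in C24 4 of 8. The count was 3 in the parent libraries alone and 4 in the hybrid libraries alone. The share of all genes called in these smaller fits was not counted, so nothing about the 28 genes is read from the lower counts.

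The largest rise was that of TIN1, with a log2 difference of 1.07 (SE 0.08, limma adjusted p = 2.05e-06), and replicate 1 was highest in all 4 groups. AP2C1 rose by 0.58 (SE 0.14, limma adjusted p = 0.00857), BGLU6 by 0.36 (SE 0.06, adjusted p = 0.000943), HMT-1 by 0.33 (SE 0.08, adjusted p = 0.00617) and UGT74F2 by 0.30 (SE 0.07, adjusted p = 0.00832) on the log2 scale in the same limma fit. STR18 rose by 0.21 (SE 0.06, limma adjusted p = 0.0303), a call lost in 8 of the fits that left out 1 library, with an adjusted p of up to 0.127. MES16 fell by 0.53 (SE 0.08, limma adjusted p = 0.000562) and was lowest in replicate 1 of all 4 groups. LTP6 fell by 0.30 (SE 0.07, limma adjusted p = 0.00565), and AT3G13175 fell by 0.30 (SE 0.09, limma adjusted p = 0.0196), the latter not called without C24 replicate 1 (adjusted p = 0.0641) or without Col/C24 replicate 1 (adjusted p = 0.0578). The log2 difference of PDF1.3, 1.16 (SE 0.58), was not called (limma adjusted p = 0.148). For PDF1.3, replicate 1 was the highest library of Col and of C24/Col, lay between the others in C24 and was the lowest of Col/C24.

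**Figure D5:**
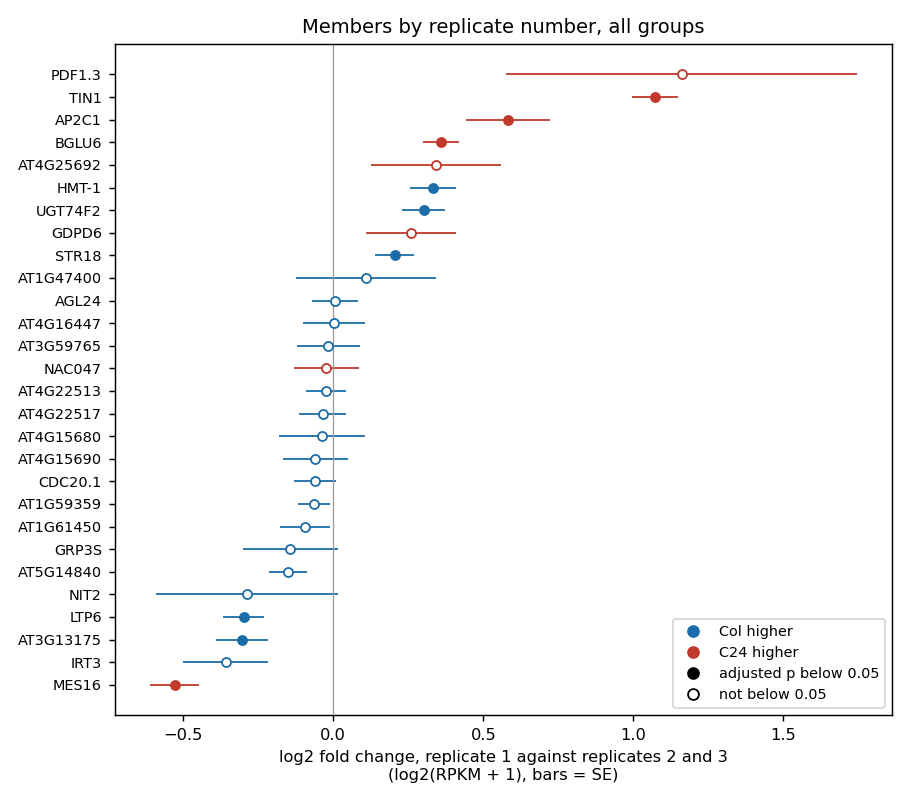
Difference on the log2(RPKM + 1) scale between replicate 1 and the mean of replicates 2 and 3 for each of the 28 genes, with bars for the SE from limma. Filled points mark the 9 genes with an adjusted p below 0.05. Among these, TIN1 at 1.07 has the largest rise and MES16 at -0.53 the largest fall.

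The gene lists were read in the same contrast, by the same limma fit adjusted over all genes, where 34.1% of all genes were called. Heat shock genes rose in 7 of 8 tested and fell in 0 (median log2 difference 2.43), touch and rapid stress genes rose in 8 of 8 (1.52), salicylic acid genes in 8 of 13 with 0 falling (0.78) and NLR immune receptors in 10 of 12 with 0 falling (0.39). Glucosinolate genes rose in 2 and fell in 9 of 23 (-0.12), flowering genes fell in 3 of 14 with 0 rising (-0.12), cold and drought genes rose in 4 and fell in 5 of 13 (-0.20), jasmonate genes rose in 4 and fell in 1 of 13 (0.05), and 1 of 10 flavonoid genes fell. The shares called among flowering and flavonoid genes were below that of all genes. The part of the list genes' changes in the values of TIN1, AP2C1 and UGT74F2 was not tested. Whether the replicate 1 difference was unlike in hybrids and parents was tested as an interaction in limma, which called 0 of the 28 genes and 0 of all genes (smallest adjusted p = 0.9999), with 1 of the 28 at an unadjusted p below 0.05.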

How the data were processed

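Poly(A)-selected RNA of 12 shoot libraries (4 groups of 3) was sequenced by the authors. TopHat and TAIR10 are named in the submitters' processing notes; how reads were counted, and on which annotation, is not given in the sources used here. Each library has 1 table deposited by the authors, whose values were taken as RPKM from their low-value steps: 72.9% to 78.0% of the low values were whole multiples of 1 read within 0.15 reads, too few for a count model, so limma 3.58.1 (R 4.3.3) was used on log2(RPKM + 1). Of 33559 identifiers, 567 occurred more than once and were left out of the choice of genes. Tests ran over the 17927 genes that reached 1 RPKM in 3 or more libraries, with a variance trend and Benjamini-Hochberg adjustment. The model had group alone, or group and replicate number for the replicate contrast. It was tested on simulated data with independent noise in each library, without the shared deviations of same-numbered libraries seen here.

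The members and lists were chosen with earlier results of these data known. Same-numbered libraries correlated in their deviations at 0.54 or more, so the numbers were taken to pair the samples in the block fits and in positions within a replicate number. The main parental, reciprocal and mid-parent fits had no replicate term. Between the parents, 7490 of 17927 genes had a limma adjusted p below 0.05 with the block, in place of 4071. Named genes were the most abundant, most different, lowest-placed and symbol-bearing members on each side, together with those called; relatives were added after values were seen. Transcript identity came from BLAST+ 2.17.0 and upstream bases from RefSeq TAIR10.1. Alternatives changed the window, thresholds, scale, pseudocount, filter, scaling, covariates and libraries. Arithmetic used Python 3.11.15.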

Additional observations from a re-analysis of the deposited data

How the results depend on the processing

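The count of 28 genes moved to 6 with a window of 0.15, to 91 with 0.35, to 9 with a parent ratio of at least 3, to 16 with at least 10 RPKM in the higher parent and to 7 with positions on the log2 scale, where by construction a value between the parents sits higher. It was 21 after median-of-ratios scaling and 24 to 56 with 1 replicate number left out, 56 being without replicate 2. The 9 genes called between replicate 1 and the others became 3 in the parent libraries alone and 4 in the hybrid libraries alone. In each of these fits 6 libraries remain. Leaving out 1 library gave 8 to 11, and pseudocount, filter, scaling and the rRNA covariate gave 9. The share of all genes called was not counted in these alternatives, so nothing is read from the changes. Of 162 alternative fits of those 9 genes, 141 kept the call, 21 lost it and 0 changed sign. Pairing by replicate number as a block gave 0 genes between the reciprocal hybrids, as did the other alternatives. Against the mid-parent, the replicate block gave 15 genes in Col/C24 and 9 in C24/Col (2.9% and 1.57% of all genes tested). Scaling gave 0 and 1 (0.0502% and 0.0725%), and both together 8 and 14 (0.697% and 3.27%), in place of 0 and 0 (0.0335% and 0.0502%). All the called members were lower, and the rule used this contrast, so nothing is read from these counts. These 3 settings were chosen after seeing the data, and the cause was not tested. Genes near 0.5 RPKM in the lower parent rest on few reads, and 3 libraries per group limit every value.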

Other observations

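The closest relatives of 2 members, looked at after the values were seen, were lower in the hybrids than in either parent. NIT1, a nitrilase 88.9% identical to NIT2 over 1128 bases, was at 301, 284.5 and 317 RPKM in Col, 232, 244 and 262 in C24, 187, 219 and 200.2 in Col/C24 and 214, 227 and 216 in C24/Col, so all 6 hybrid libraries were below all 6 parental libraries. CDC20.2, 89.0% identical to CDC20.1 over 1774 bases, was at 10.5, 11.6 and 11.5 RPKM in Col, 11.8, 13.45 and 13.45 in C24, 8.05, 10.2 and 9.42 in Col/C24 and 7.86, 9.16 and 7.87 in C24/Col, with all 6 hybrid libraries below all 6 parental libraries as well. Their parents did not differ enough to enter the choice, and no test was made of them. NIT1 and CDC20.2 were picked out, and how many of all genes show the same pattern was not counted. For CDC20.2 the separation is that of the values as deposited. Col replicate 1 (10.5 RPKM) and Col/C24 replicate 2 (10.2 RPKM) change order when divided by their median-of-ratios size factors, 1.04 and 0.99. GRP-3, the closest relative of GRP3S, had higher means in the hybrids (802 and 853 RPKM) than in the parents (739 for Col, 692 for C24). The ranges of its libraries overlapped. As deposited, the median of all genes tested against the mid-parent value (log2 scale) was -0.09 for Col/C24, with C24/Col at -0.003.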
